A study of Mus musculus with 27 samples.

Results

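Matrix metalloproteinases (MMPs) and tissue inhibitors of metalloproteinases (TIMPs) were followed in RNA of hepatic stellate cells (HSCs) sorted from mouse liver. The 10 genes were taken by name from a table of 53379 genes, with earlier results of these data known. They were the metalloproteinases Mmp2, Mmp3, Mmp9, Mmp12, Mmp13, Mmp14 and Mmp23 and the inhibitors Timp1, Timp2 and Timp3. RNA was sequenced in bulk from 27 libraries of male Balb/c mice, and HSCs went from the perfused liver through a sorter, which picked ultraviolet-positive cells (HSCs store fluorescent retinoid), to RNA without culture. The liver was injured with CCl4 (carbon tetrachloride, which is toxic to hepatocytes), given into the peritoneum in mineral oil at 0.5 µL per g of body weight. Healthy mice (n = 4 libraries, 10 to 12 weeks old) received no injection, so no group had received the oil alone. Acute groups had 1 injection at an age of 10 to 12 weeks and were collected 24 h later (n = 3 libraries), 72 h later (n = 4 libraries) or 7 d later (n = 4 libraries). Chronic groups had 8 injections over 4 weeks, begun at an age of 8 to 10 weeks, and were collected 24 h, 72 h or 14 d after the last one (n = 4 each). All 10 genes had enough counts to be tested. The labels number the libraries of each group but do not say whether each came from 1 mouse, so p-values measure the spread between these libraries.

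MMPs are zinc-dependent proteases that cut proteins of the extracellular matrix. They are made as inactive precursors, and their activity is held in check by TIMPs, which bind the active site. Gelatinases (Mmp2, Mmp9) cut denatured and basement membrane collagen, collagenases such as Mmp13 open fibrillar collagen, the stromelysin Mmp3 cuts proteoglycans and activates other MMPs, and Mmp12 is known as macrophage elastase. Mmp14 is anchored in the cell membrane and activates the precursor of Mmp2 in a complex that also holds Timp2. In fibrotic liver, stellate cells are a known source of Mmp2, Mmp14 and Timp1, and macrophages are a known source of Mmp12 and Mmp13.

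The start sites show a sequence that part of the family shares. RefSeq promoter windows (GRCm38.p6, 250 bases before each start) were found for 8 of the 10 genes, with 10 starts in all, and none for Mmp2 and Mmp9. They were searched for the AP-1 motif TGANTCA on both strands, which 6.75% of all 32851 promoter windows held. Mmp3, Mmp13 and the second start of Mmp12, a group of neighbours on chromosome 9, held a match, and Timp1 and the other genes did not. The 120 bases before these starts are shown because the match lies close to each start, with Timp1 for contrast, and capitals mark the AP-1 match.
Mmp3, chr9:7445702-7445821, plus strand: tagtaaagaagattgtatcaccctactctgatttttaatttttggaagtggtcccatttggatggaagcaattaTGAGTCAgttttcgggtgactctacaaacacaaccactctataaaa
Mmp13, chr9:7272394-7272513, plus strand: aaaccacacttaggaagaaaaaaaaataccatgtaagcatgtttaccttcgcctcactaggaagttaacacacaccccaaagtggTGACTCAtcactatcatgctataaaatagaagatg
Mmp12 second start, chr9:7347254-7347373, plus strand: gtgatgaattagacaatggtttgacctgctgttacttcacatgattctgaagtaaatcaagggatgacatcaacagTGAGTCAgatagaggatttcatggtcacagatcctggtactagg
Timp1, chrX:20870046-20870165, plus strand: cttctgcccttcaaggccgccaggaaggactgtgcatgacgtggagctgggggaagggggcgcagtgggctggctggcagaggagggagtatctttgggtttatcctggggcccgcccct
The first base of the match lay at -46 in Mmp3, -35 in Mmp13 and -44 in Mmp12, counted from the start. TATAAA on the gene's own strand was found in Mmp13 and Mmp3 and in 7.59% of all windows. The GC box GGGCGG, searched on both strands, was found in Mmp14, Timp1, Timp2 and Timp3 and in 32.7% of all windows. AGGAAG, the ETS motif, was found on either strand in Mmp3, Mmp13, Mmp14, Timp1 and Timp3 and in 29.5% of all windows. In Mmp12 it was found before the first start and not before the second, which held the AP-1 match. These matches are letters in a window, and binding was not measured.

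Total counts ran from 6.31 M to 13.1 M per library, and 8 libraries had 7.58 M or less. These were all 4 of chronic 14 d, with chronic 24 h replicates 1 and 2 and chronic 72 h replicates 1 and 2. The other 19 had at least 10.8 M, so depth class could be compared within a group only in chronic 24 h and chronic 72 h. There the classes overlapped only for Mmp23 and Timp1 in chronic 24 h and for Mmp2 and Mmp12 in chronic 72 h. Libraries of higher depth had 1.45 times the mean Timp2 level of the others in chronic 24 h and 1.36 times in chronic 72 h. For Mmp9 they had 0.624 and 0.528 times, so the direction differed between genes. The cause was not tested. Markers of HSCs were present in every library, with 10 of 10 detected and a summed level of 28973 to 48429 CPM (counts scaled to a common library size by the trimmed mean of M values, TMM) in healthy and 15357 to 18131 CPM in chronic 24 h libraries. Of these 10 markers, 6 were lower and 1 higher in chronic 24 h than healthy libraries. The summed level of 10 markers of monocyte-derived macrophages was 185 to 316 CPM in healthy, 296 to 378 in acute 24 h, 398 to 512 in acute 72 h, 1593 to 6473 in acute 7 d, 1021 to 2539.6 in chronic 24 h, 613 to 1735 in chronic 72 h and 371 to 560.0 in chronic 14 d libraries. Of these 10, 9 were called higher and 1 lower than healthy in chronic 24 h, and 2 higher and 1 lower in acute 24 h, so the level of these markers differed between groups. In such bulk RNA, more cells of a type and more RNA per cell cannot be told apart. Genes were tested with edgeR's quasi-likelihood test and called changed when the p adjusted after Benjamini and Hochberg was under 0.05 and the fitted difference over 2-fold. Differences are log2 fold changes. The 6 comparisons with healthy share its 4 libraries, and others share their 24 h groups.

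Nearly the whole set was higher 24 h after the last of the repeated injections. In chronic 24 h against healthy libraries, 9 of the 10 genes were higher and 0 lower, where 11.2% of the 18758 tested genes were called higher and 8.11% lower. The exception was Timp2. As the 10 genes were chosen with earlier results known, the shares of all genes are given for scale and are not a test of the set. At 72 h after the last injection 7 were higher (7.88% of all genes), and at 14 d 4 were still higher, namely Mmp9, Mmp12, Mmp13 and Mmp23 (4.55% of all genes). With DESeq2 the 14 d count was 7, since Mmp3, Timp1 and Timp3 were also called. Over all other settings this count ran from 3 to 7. The Mmp13 call at 14 d was lost in 7 of 8 fits without 1 library and in 4 other settings. Every chronic 14 d library was of lower depth and every healthy one of higher depth, so depth and group cannot be told apart in that comparison. No gene of the set was called lower in a chronic group than in healthy libraries, where 4.2% and 1.17% of all genes were at 72 h and 14 d. The median log2 fold change of the set was 3.38 at 24 h, 2.38 at 72 h and 1.79 at 14 d, beside -0.03, 0.00 and -0.03 over all tested genes. Chronic and healthy libraries did not overlap for 10 of the 10 genes at 24 h (26.4% of all tested genes), for 9 at 72 h (21.1%) and for 6 at 14 d (13.3%).

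A single injury moved fewer genes at first, and more of them a week later. In acute 24 h against healthy libraries, Mmp3, Mmp9 and Timp1 were higher and Mmp2 was lower, beside 9.41% of all genes higher and 12.5% lower. At 72 h 7 of the 10 were higher (8.23% of all genes), and at 7 d again 7 (9.23% of all genes), with 0 lower at either time (4.33% and 5.64% of all genes). Both lists held Mmp3, Mmp9, Mmp12, Mmp13, Mmp23 and Timp1, to which 72 h added Timp3 and 7 d added Mmp2. Mmp9 was tested here through the filter over all groups, and fits of only the groups compared left it out. The set's median log2 fold change was 0.86, 1.94 and 2.26 at 24 h, 72 h and 7 d, beside -0.12, 0.00 and 0.01 over all tested genes. Acute and healthy libraries did not overlap for 8 of the 10 genes at 24 h (39.8% of all tested genes), for 7 at 72 h (23.6%) and for 8 at 7 d (24.6%).

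**Figure D1:**
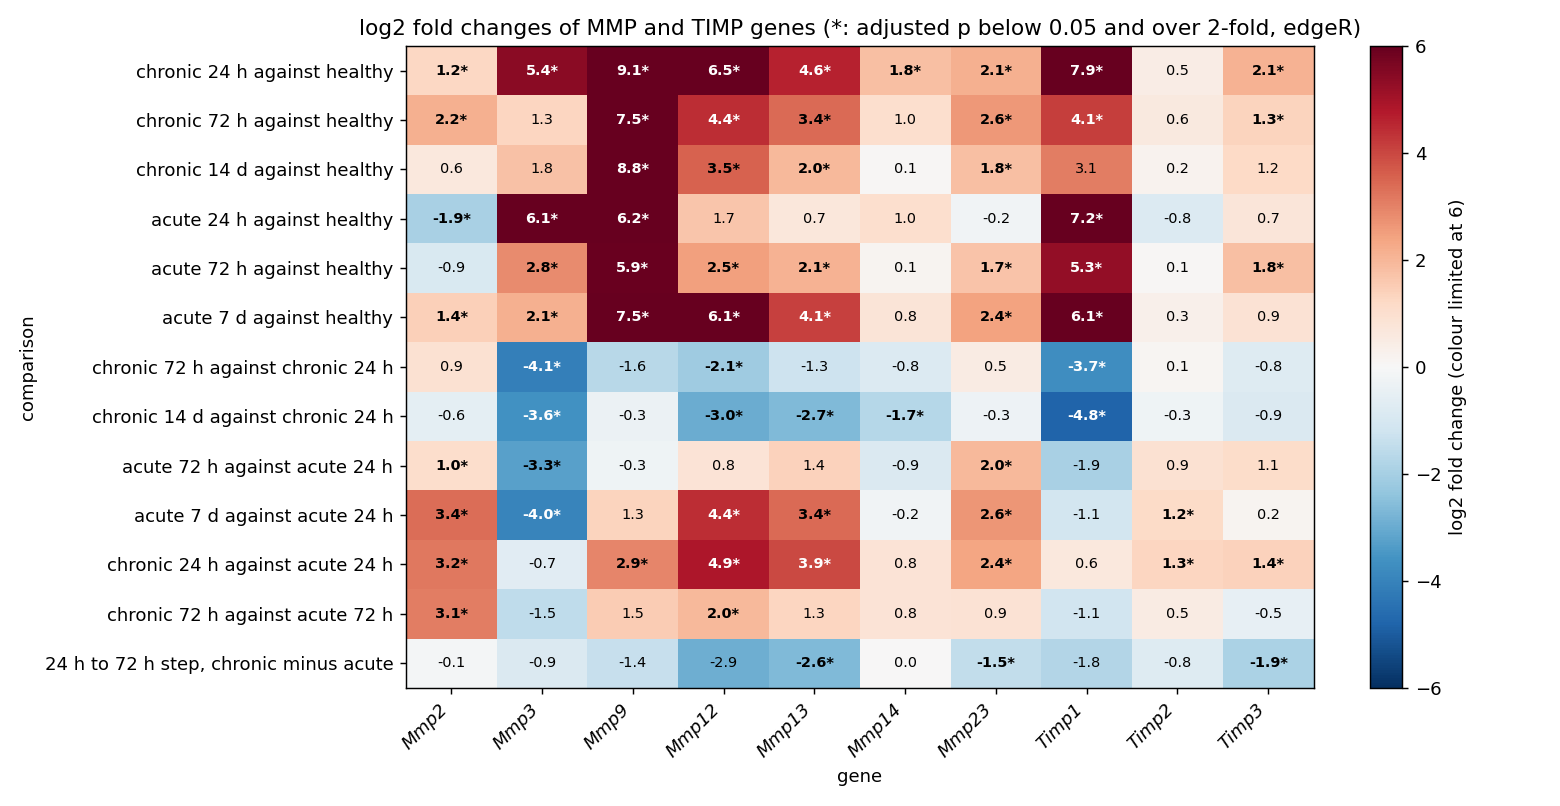
Log2 fold change of each of the 10 genes (columns) in each of 12 comparisons and in the difference between the chronic and acute steps from 24 h to 72 h (rows), with an asterisk where the gene was called changed with edgeR. Chronic 24 h against healthy, the top row, has an asterisk at 9 of 10 genes. Values of Mmp9 against healthy libraries, which all had 0 counts, depend on the prior count and are not sizes.

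**Figure D2:**
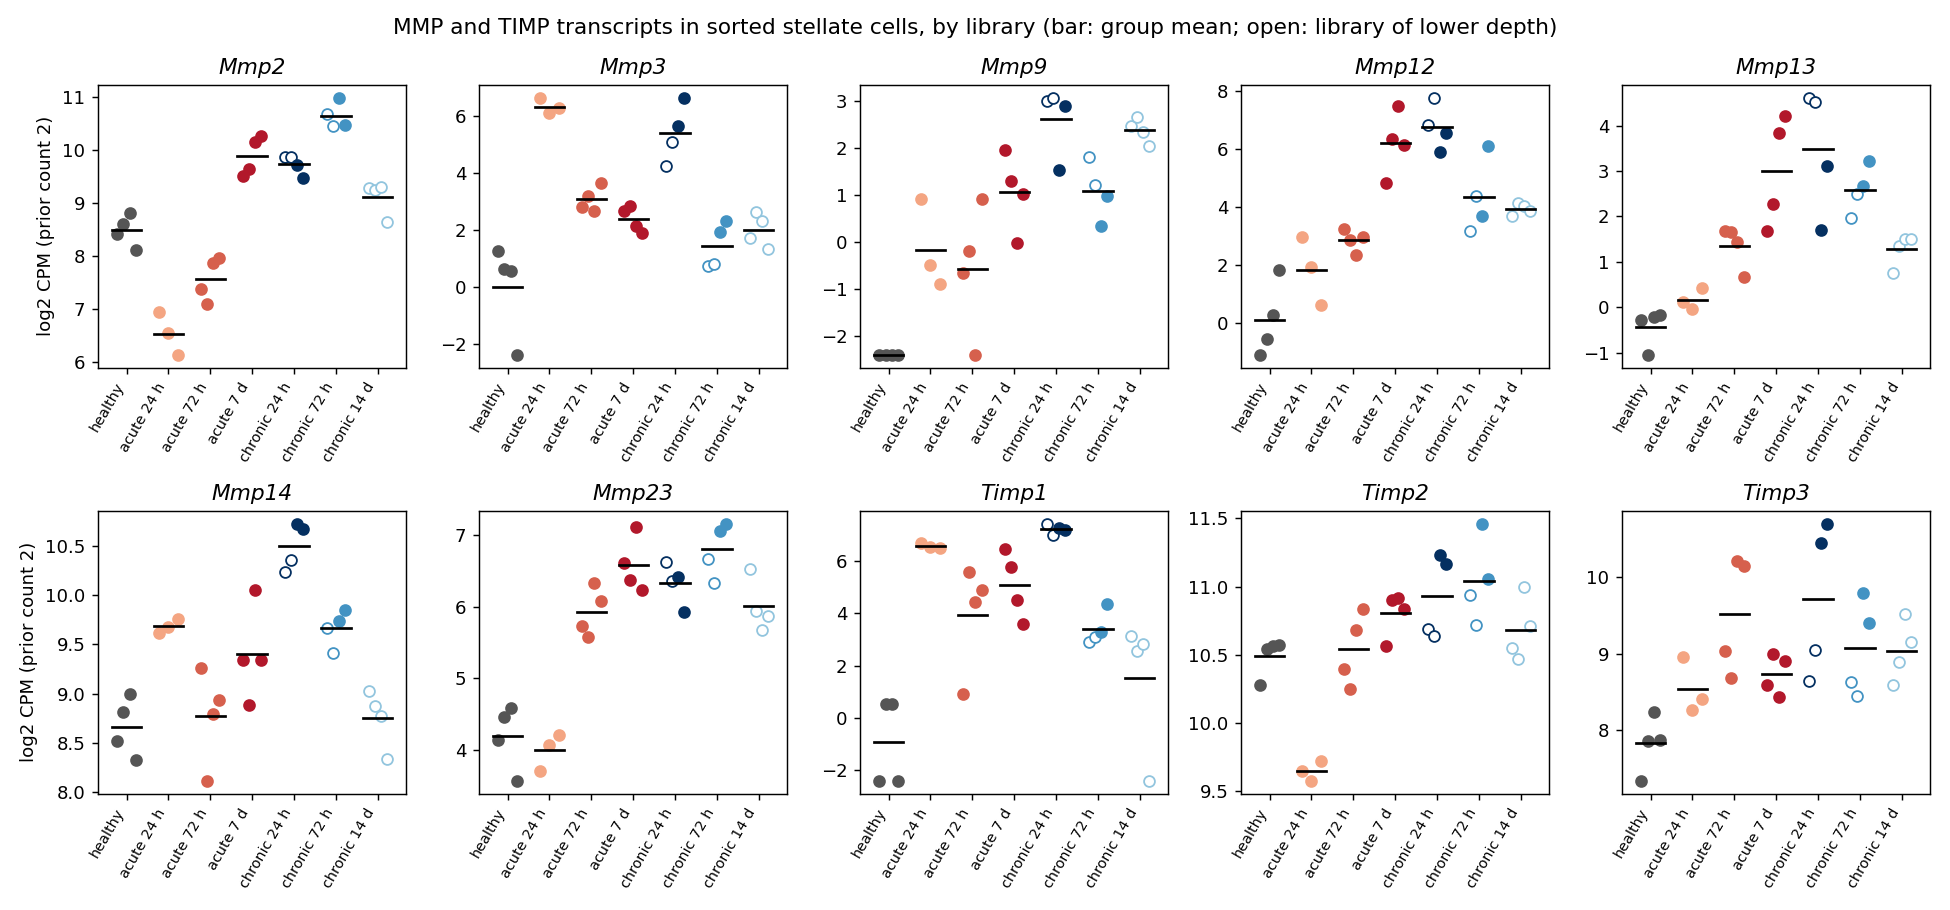
Log2 CPM (prior count 2) of each gene in each of the 27 libraries by group, with a bar at the group mean and open circles for the 8 libraries of lower depth. Mmp2 was lowest in acute 24 h and highest in chronic 72 h libraries, and Mmp3 and Timp1 had their highest values at 24 h after injury. The vertical axes differ between genes.

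Mmp2, gelatinase A (3.37 kb of exons, chr8:92827291-92853420), was lower than healthy at acute 24 h and higher at acute 7 d, chronic 24 h and chronic 72 h. Healthy libraries had 343, 390.2, 450.1 and 277 CPM, acute 24 h 122, 92.8 and 70.0, acute 72 h 166, 136, 235 and 248 and acute 7 d 729.8, 797, 1136 and 1237 CPM. Chronic 24 h libraries had 929.5, 936, 842 and 711 CPM, chronic 72 h 1633, 1412, 2029 and 1431 and chronic 14 d 621, 607, 627 and 401 CPM. All acute 24 h and 72 h libraries lay below all healthy ones, and all acute 7 d, chronic 24 h and chronic 72 h libraries above them, while chronic 14 d overlapped healthy. Against healthy, the log2 fold change was -1.94 ± 0.26 (SE, adjusted p 4.68e-06) in acute 24 h, 1.42 ± 0.23 (SE, adjusted p 8.37e-05) in acute 7 d, 1.23 ± 0.23 (SE, adjusted p 2.18e-04) in chronic 24 h and 2.16 ± 0.23 (SE, adjusted p 8.00e-07) in chronic 72 h with edgeR. At acute 72 h it was -0.90 ± 0.23 (SE, adjusted p 0.00579) with edgeR, short of a 2-fold change. From acute 24 h to acute 7 d Mmp2 rose by 3.36 ± 0.28 (SE, adjusted p 7.71e-09) with edgeR. From acute 24 h to 72 h it rose by 1.05 ± 0.25 (SE, adjusted p 0.00324) with edgeR, a call that lay near the 2-fold limit: the value was 0.87 without acute 24 h replicate 3, 0.87 without acute 72 h replicate 3 and 0.85 without acute 72 h replicate 4, and in libraries of higher depth alone it was 0.99. Mmp2 group means ran, from the highest, in the order chronic 72 h, acute 7 d, chronic 24 h, chronic 14 d, healthy, acute 72 h and acute 24 h, and neighbours overlapped only for acute 7 d and chronic 24 h, for chronic 14 d and healthy.

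Mmp9, gelatinase B, which neutrophils store in granules (chr2:164940780-164955850, 3.54 kb of exons), had 0 counts in each of the 4 healthy libraries, which allows up to 3 counts in each. Acute 24 h libraries held 19, 6 and 4 counts, acute 72 h 5, 8, 0 and 22 and acute 7 d 46, 28, 10 and 24 counts. Chronic 24 h libraries held 52, 60, 31 and 91 counts, chronic 72 h 25, 15, 14 and 23 and chronic 14 d 40, 47, 41 and 27 counts. Every injured library but acute 72 h replicate 3 thus had Mmp9 reads, yet none had more than 91. Acute 72 h was therefore the group that overlapped healthy. As CPM, chronic 24 h libraries had 7.79, 8.24, 2.72 and 7.28, and chronic 14 d libraries 5.40, 6.18, 4.93 and 3.97, and the mean was still 5.12 ± 0.927 CPM (SD, n = 4) 14 d after the last injection. Against a floor of 3 counts per healthy library, the group mean of Mmp9 was at least 24.2-fold higher in chronic 24 h (edgeR, adjusted p 5.36e-06). It was at least 7.77-fold higher in chronic 72 h (edgeR, adjusted p 1.76e-04) and at least 19-fold in chronic 14 d libraries (edgeR, adjusted p 9.21e-05). After 1 injection the group mean was at least 3.17-fold higher at 24 h (edgeR, adjusted p 9.68e-04). It was at least 2.64-fold higher at 72 h (edgeR, adjusted p 0.00212) and at least 8.04-fold at 7 d (edgeR, adjusted p 1.22e-04). Such bounds hold for means and not for each library. In fits of only the groups compared, the filter on low counts removed Mmp9 from each acute comparison with healthy, so those calls depend on its reads in other groups. The means of the early acute groups rest on 1 library each: acute 24 h was 0.855 CPM and 0.436 without replicate 1, and acute 72 h was 0.71 CPM and 0.379 without replicate 4. Mmp9 group means ran, from the highest, in the order chronic 24 h, chronic 14 d, acute 7 d, chronic 72 h, acute 24 h, acute 72 h and healthy, and neighbours overlapped except chronic 14 d and acute 7 d.

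Beside Mmp9, the summed level of 10 neutrophil markers was 0.390 to 2.18 CPM in healthy, 4.30 to 19.5 in acute 24 h, 6.75 to 10.6 in acute 72 h and 31.7 to 53.4 in acute 7 d libraries. It was 18.6 to 54.1 CPM in chronic 24 h, 17.2 to 33.4 in chronic 72 h and 50.8 to 70.1 in chronic 14 d libraries. Between 1 and 3 of the 10 markers were detected in a healthy library and 6 to 9 in a chronic 14 d library. S100a8, Ngp and Retnlg, which mark neutrophils, had 0 counts in all healthy libraries, while the granule genes Camp, Ltf and Elane were at 0 in most injured libraries too. Of the 7 neutrophil markers tested, 6 were higher in each chronic group than in healthy libraries. The part of neutrophil RNA in the Mmp9 reads was not tested.

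Mmp3, stromelysin 1 (chr9:7445822-7455975, 1.80 kb of exons), was highest 24 h after injury, acute or chronic. It had 2.18, 1.37, 1.26 and 0 CPM in healthy, 100.4, 68.5 and 77.4 in acute 24 h, 6.82, 9.0, 6.10 and 12.3 in acute 72 h and 6.23, 7.05, 4.27 and 3.53 CPM in acute 7 d libraries. It had 18.9, 34.3, 50.9 and 99 CPM in chronic 24 h, 1.47, 1.57, 3.58 and 4.78 in chronic 72 h and 3.11, 6.05, 4.81 and 2.35 CPM in chronic 14 d libraries. Both 24 h groups stood above all other groups, and they overlapped each other. Against healthy, Mmp3 was higher by 6.09 ± 0.66 (SE, adjusted p 4.38e-07) in acute 24 h, 2.83 ± 0.59 (SE, adjusted p 0.00130) in acute 72 h, 2.13 ± 0.59 (SE, adjusted p 0.0108) in acute 7 d and 5.40 ± 0.63 (SE, adjusted p 8.71e-07) in chronic 24 h with edgeR. In a fit of only the groups compared, the acute 7 d call was lost (2.11, edgeR adjusted p 0.0918). In chronic 72 h the difference was 1.29 ± 0.60 (SE, adjusted p 0.137) and in chronic 14 d 1.77 ± 0.60 (SE, adjusted p 0.0701) with edgeR, neither of which passed. With depth class as a term both passed, at 1.80 (edgeR, adjusted p 0.0220) and 3.24 (edgeR, adjusted p 0.00834). It fell from 24 h to 72 h, with a change of -3.26 ± 0.57 (SE, adjusted p 2.06e-04) after 1 injection and -4.11 ± 0.59 (SE, adjusted p 4.66e-05) after 8 with edgeR, and the steps differed by -0.85 ± 0.77 (SE, adjusted p 0.551) with edgeR. The difference of acute 7 d from acute 24 h was -3.96 ± 0.59 (SE, adjusted p 1.47e-05), and that of chronic 14 d from chronic 24 h was -3.63 ± 0.57 (SE, adjusted p 8.15e-05) with edgeR, the latter with a value of -3.03 without chronic 24 h replicate 4 and -2.70 with depth class as a term. In chronic 24 h the 2 libraries of higher depth had 2.82 times the mean CPM of the 2 of lower depth, and in chronic 72 h 2.75 times, without overlap in either. Healthy replicate 4 had 0 counts of Mmp3, which allows up to 3, and the other healthy libraries had 24, 14 and 15. Mmp3 group means ran, from the highest, in the order acute 24 h, chronic 24 h, acute 72 h, acute 7 d, chronic 14 d, chronic 72 h and healthy, and neighbours overlapped except chronic 24 h and acute 72 h.

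Mmp13, the interstitial collagenase of rodents (chr9:7272514-7283331, 2.67 kb of exons), was scarce in healthy cells and rose late after 1 injection. Healthy libraries had 0.635, 0.293, 0.674 and 0.693 CPM, acute 24 h 0.890, 0.781 and 1.14, acute 72 h 3.01, 2.94, 2.52 and 1.39 and acute 7 d 2.99, 4.68, 14.2 and 18.2 CPM. Chronic 24 h libraries had 24.3, 22.9, 3.07 and 8.48 CPM, chronic 72 h 3.73, 5.43, 6.15 and 9.09 and chronic 14 d 1.49, 2.37, 2.65 and 2.64 CPM. All injured groups lay above healthy libraries, acute 24 h by the least. Against healthy, the log2 fold change was 0.69 ± 0.66 (SE, adjusted p 0.462) in acute 24 h with edgeR, which did not pass, then 2.07 ± 0.60 (SE, adjusted p 0.0146) in acute 72 h and 4.09 ± 0.61 (SE, adjusted p 3.67e-05) in acute 7 d. It was 4.63 ± 0.62 (SE, adjusted p 4.89e-06) in chronic 24 h, 3.38 ± 0.60 (SE, adjusted p 3.00e-04) in chronic 72 h and 1.96 ± 0.61 (SE, adjusted p 0.0455) in chronic 14 d with edgeR, and chronic 14 d differed from chronic 24 h by -2.67 ± 0.56 (SE, adjusted p 0.00130). From acute 24 h to acute 7 d it rose by 3.40 ± 0.66 (SE, adjusted p 2.54e-04) with edgeR. The chronic 14 d call stood near its limit: it was lost, at values from 1.76 to 2.06, without any one of the healthy libraries and without replicate 2, 3 or 4 of chronic 14 d, and also with depth class as a term, at 1.29. The acute 72 h call was lost without healthy replicate 2, at 1.86. Within chronic 24 h, the 2 libraries of higher depth had 0.245 times the mean CPM of the 2 of lower depth, without overlap. In libraries of higher depth alone, Mmp13 was higher in chronic 24 h than healthy by 3.32. Mmp13 group means ran, from the highest, in the order chronic 24 h, acute 7 d, chronic 72 h, acute 72 h, chronic 14 d, acute 24 h and healthy, and neighbours overlapped only for chronic 24 h and acute 7 d, for acute 7 d and chronic 72 h, for acute 72 h and chronic 14 d.

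Mmp12, macrophage elastase (chr9:7344381-7369499, 7.24 kb of exons), had the largest ratio between its highest and lowest group mean among the MMPs with reads in healthy libraries. It shares 157 exon bases with Mmp1b on the opposite strand, which had 0 counts in every library. Healthy libraries had 0.272, 0.488, 1.01 and 3.29 CPM, acute 24 h 7.48, 3.56 and 1.32, acute 72 h 9.12, 7.10, 4.88 and 7.59 and acute 7 d 28.1, 81, 179 and 70.1 CPM. Chronic 24 h libraries had 113, 217, 59.1 and 93.2 CPM, chronic 72 h 8.67, 20.6, 12.6 and 68.9 and chronic 14 d 12.6, 17.4, 16 and 14.3 CPM. Apart from acute 24 h, whose lowest library lay below healthy replicate 4, all injured groups lay above healthy. Against healthy, Mmp12 was higher by 6.54 ± 0.83 (SE, adjusted p 2.57e-06) in chronic 24 h, 4.43 ± 0.77 (SE, adjusted p 2.45e-04) in chronic 72 h and 3.54 ± 0.75 (SE, adjusted p 0.00426) in chronic 14 d with edgeR. After 1 injection the difference was 1.68 ± 0.78 (SE, adjusted p 0.105) at 24 h, which did not pass, 2.48 ± 0.74 (SE, adjusted p 0.0183) at 72 h and 6.11 ± 0.81 (SE, adjusted p 1.12e-05) at 7 d with edgeR. These values rest on healthy replicate 4: without it they were 7.63 in chronic 24 h, 5.51 in chronic 72 h, 4.63 in chronic 14 d, 3.56 in acute 72 h and 7.20 in acute 7 d, since the healthy mean of 1.27 CPM became 0.59. Without chronic 72 h replicate 4 the chronic 72 h value was 3.43. The acute 72 h call was lost without healthy replicate 1 (2.15), 2 (2.22) or 3 (2.38).

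From acute 24 h to acute 7 d, Mmp12 rose by 4.44 ± 0.83 (SE, adjusted p 2.04e-04) with edgeR (5.19 without acute 24 h replicate 1). From chronic 24 h to chronic 14 d it fell, with a log2 value of -3.00 ± 0.68 (SE, adjusted p 0.00268) with edgeR. From chronic 24 h to 72 h the change was -2.11 ± 0.65 (SE, adjusted p 0.0295) with edgeR, although the groups overlapped. That call was lost without chronic 24 h replicate 2 (-1.67) and without chronic 72 h replicate 1 (-1.82), 2 (-1.97) or 3 (-1.84), and the value was -3.11 without chronic 72 h replicate 4. In libraries of higher depth alone it was -0.88 and was not called. Chronic 72 h replicate 4 held 880 counts against 65, 144 and 162 in its group, and without it the group mean of 27.7 CPM became 13.9. That library also had the highest summed level of monocyte-derived macrophage markers in its group. Mmp12 group means ran, from the highest, in the order chronic 24 h, acute 7 d, chronic 72 h, chronic 14 d, acute 72 h, acute 24 h and healthy, and neighbours overlapped except chronic 14 d and acute 72 h.

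**Figure D3:**
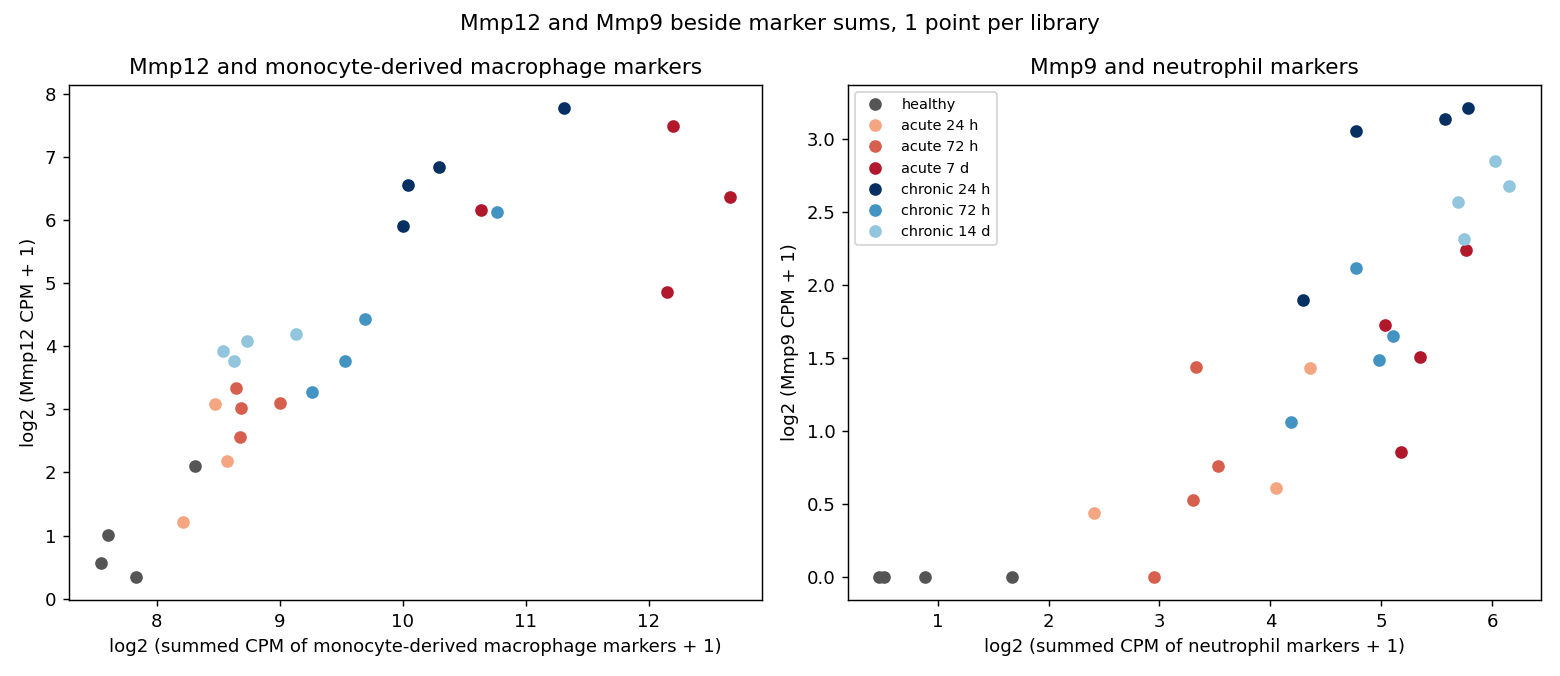
Left, log2 (CPM + 1) of Mmp12 against log2 (summed CPM + 1) of 10 monocyte-derived macrophage markers, and right, the same for Mmp9 and 10 neutrophil markers, with 1 point for each of the 27 libraries coloured by group. Healthy libraries sit at the lower left of both plots, chronic 24 h and acute 7 d libraries toward the upper right on the left, and chronic 24 h and chronic 14 d libraries toward the upper right on the right.

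Markers of other cells also differed between groups, though not always along with Mmp12 and Mmp13. Of 10 markers of monocyte-derived macrophages, all were tested, and 9 were higher and 1 lower in chronic 24 h, 8 higher in chronic 72 h, 8 in chronic 14 d, 2 higher and 1 lower in acute 24 h, 7 higher in acute 72 h and 9 in acute 7 d than in healthy libraries. Healthy libraries had 4 to 8 of these markers detected and chronic 24 h libraries 9 or 10. Spp1, Gpnmb and Plac8, which other cells also express, made up most of the sum in every group, and Ccr2, the chemokine receptor of monocytes, had 1.72, 1.07, 1.69 and 5.81 CPM in healthy and 54, 47.5, 25.5 and 35.8 CPM in chronic 24 h libraries. The summed level of 12 markers of macrophages and Kupffer cells was 179 to 732 CPM in healthy, 175 to 252 in acute 24 h, 325 to 689 in acute 72 h, 4177 to 10974 in acute 7 d, 587 to 3944 in chronic 24 h, 1098 to 3118 in chronic 72 h and 819 to 2274 in chronic 14 d libraries. Macrophage markers were thus most abundant in acute 7 d, where Mmp12 and Mmp13 had their second highest means. From chronic 24 h to 72 h, mean Mmp12 went from 120 to 27.7 CPM and mean Mmp13 from 14.7 to 6.10 CPM. The median sum went from 2026 to 2243 CPM for macrophages and Kupffer cells and from 1151 to 782 CPM for monocyte-derived macrophages. The part of macrophage RNA in the Mmp12 and Mmp13 reads was not tested. Of 9 tested markers of mesothelial cells and portal fibroblasts, other matrix-producing cells of the liver, 5 were higher in chronic 24 h, 5 in chronic 72 h and 5 in acute 7 d than in healthy libraries, with a sum of 529.9 to 745 CPM in chronic 24 h and 117 to 179 CPM in healthy libraries. Their part in the reads of the 10 genes was not tested.

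Mmp14, the membrane-type protease (chr14:54431612-54445364, 5.96 kb of exons), had reads in every library and the smallest ratio between highest and lowest group mean among the 7 MMPs. It had 367, 449, 511 and 320.4 CPM in healthy, 785, 815 and 867 in acute 24 h, 612, 277, 444 and 489 in acute 72 h and 649.7, 473, 1059.6 and 649 CPM in acute 7 d libraries. It had 1201, 1306, 1692 and 1628 CPM in chronic 24 h, 814, 679, 853 and 922 in chronic 72 h and 523, 469, 438 and 324 CPM in chronic 14 d libraries. Its peak, in chronic 24 h, lay above every other library. There it was higher than healthy by 1.82 ± 0.24 (SE, adjusted p 3.04e-06) with edgeR, and by chronic 14 d it had fallen again, with a difference of -1.73 ± 0.24 (SE, adjusted p 1.36e-05) from chronic 24 h. The differences from healthy in acute 24 h, 1.00 ± 0.25 (SE, adjusted p 0.00290), and in chronic 72 h, 0.99 ± 0.23 (SE, adjusted p 0.00366), had adjusted p below the threshold with edgeR but lay just short of 2-fold, and without a filter on low counts both passed it. In chronic 14 d its level was 438 ± 84 CPM (SD, n = 4) beside 412 ± 84.7 CPM (SD, n = 4) in healthy libraries, and the groups overlapped. Mmp14 group means ran, from the highest, in the order chronic 24 h, acute 24 h, chronic 72 h, acute 7 d, acute 72 h, chronic 14 d and healthy, and neighbours overlapped except chronic 24 h and acute 24 h.

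Mmp23, a membrane-anchored family member of less known substrates (chr4:155650655-155653384, minus strand, 2.34 kb of exons), was not called changed 24 h after a first injury and was raised in every other injured group. Healthy libraries had 17.4, 21.9, 23.8 and 11.7 CPM, acute 24 h 12.8, 16.7 and 18.3, acute 72 h 52.9, 47.5, 80.7 and 67.8 and acute 7 d 97.9, 83.2, 138 and 75.5 CPM. Chronic 24 h libraries had 98.6, 82, 85.2 and 60.4 CPM, chronic 72 h 102, 80.1, 133 and 143 and chronic 14 d 92.5, 61.6, 51 and 58.6 CPM. Acute 24 h overlapped healthy, and all other groups lay above both without overlap. The difference from healthy was -0.23 ± 0.27 (SE, adjusted p 0.561) in acute 24 h with edgeR, 1.73 ± 0.26 (SE, adjusted p 3.74e-05) in acute 72 h and 2.40 ± 0.26 (SE, adjusted p 8.90e-07) in acute 7 d. It was 2.12 ± 0.26 (SE, adjusted p 1.43e-06) in chronic 24 h, 2.61 ± 0.26 (SE, adjusted p 3.42e-07) in chronic 72 h and 1.82 ± 0.26 (SE, adjusted p 9.56e-05) in chronic 14 d with edgeR. From acute 24 h it rose by 1.96 ± 0.29 (SE, adjusted p 2.69e-05) to 72 h and by 2.63 ± 0.30 (SE, adjusted p 4.65e-07) to 7 d with edgeR. From chronic 24 h to chronic 14 d the difference was -0.31 ± 0.25 (SE, adjusted p 0.417) with edgeR, which did not pass. Mmp23 group means ran, from the highest, in the order chronic 72 h, acute 7 d, chronic 24 h, chronic 14 d, acute 72 h, healthy and acute 24 h, and neighbours overlapped except acute 72 h and healthy.

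Timp1, the inducible inhibitor of the family (chrX:20870166-20874735, 0.89 kb of exons), went from almost no reads in healthy cells to at least 1036 counts in each acute 24 h library. Healthy libraries held 0, 13, 15 and 0 counts, acute 24 h 1149, 1073 and 1036, acute 72 h 19, 553, 261 and 378 and acute 7 d 1073, 658, 282 and 156 counts. Chronic 24 h libraries held 1146, 929, 1736 and 1787 counts, chronic 72 h 54, 59, 122 and 255 and chronic 14 d 64, 43, 58 and 0 counts. All acute and chronic groups but chronic 14 d, where replicate 4 was at 0, lay above all healthy libraries. As CPM, acute 24 h libraries had 102, 93.1 and 91 and chronic 24 h libraries 172, 128, 152 and 143, both above any other group, while acute 72 h spread from 1.68 to 47.9 and acute 7 d from 12 to 86.8. Against healthy, Timp1 was higher by 7.22 ± 1.10 (SE, adjusted p 2.55e-05) in acute 24 h, 5.29 ± 1.02 (SE, adjusted p 6.54e-04) in acute 72 h and 6.10 ± 1.04 (SE, adjusted p 1.84e-04) in acute 7 d with edgeR. It was higher by 7.86 ± 1.10 (SE, adjusted p 9.56e-06) in chronic 24 h and 4.15 ± 1.00 (SE, adjusted p 0.00485) in chronic 72 h with edgeR, and in chronic 14 d the difference, 3.07 ± 1.01 (SE, adjusted p 0.0609), did not pass. These fold changes stand on 2 healthy libraries with counts: without healthy replicate 3 they were 7.84, 5.91, 6.72, 8.48 and 4.77 for the 5 called groups in that order, and the healthy mean of 0.633 CPM became 0.421 without replicate 2. A count of 0 in a healthy library allows up to 3 counts.

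After the last of 8 injections Timp1 fell, with a change of -3.71 ± 0.87 (SE, adjusted p 0.00490) on the log2 scale from 24 h to 72 h and of -4.79 ± 0.92 (SE, adjusted p 6.48e-04) from 24 h to 14 d with edgeR. After 1 injection the change from 24 h was -1.93 ± 0.84 (SE, adjusted p 0.104) at 72 h and -1.12 ± 0.83 (SE, adjusted p 0.294) at 7 d with edgeR, neither of which passed. The chronic and acute steps from 24 h to 72 h differed by -1.78 ± 1.17 (SE, adjusted p 0.379) with edgeR, which did not pass either. In libraries of higher depth alone, the chronic fall from 24 h to 72 h was -3.30 and did not pass. The Timp1 gene lies wholly inside the body of Syn1 on the opposite strand, with all 888 exon bases under Syn1 and 0 under its exons. Whether reads were counted by strand is not stated. Timp1 group means ran, from the highest, in the order chronic 24 h, acute 24 h, acute 7 d, acute 72 h, chronic 72 h, chronic 14 d and healthy, and neighbours overlapped except chronic 24 h and acute 24 h, and acute 24 h and acute 7 d.

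Timp2, the inhibitor that joins Mmp14 in activating Mmp2 (chr11:118301069-118355740, minus strand, 3.90 kb of exons), had the narrowest range between group means in the set. It had 1244, 1493, 1511 and 1519 CPM in healthy, 805, 765 and 844 in acute 24 h, 1344, 1219, 1645 and 1824 in acute 72 h and 1514, 1915, 1935 and 1823 CPM in acute 7 d libraries. It had 1655, 1591, 2397 and 2300.0 CPM in chronic 24 h, 1967, 1682, 2819 and 2128 in chronic 72 h and 1503, 1417, 2046 and 1674 CPM in chronic 14 d libraries. Only acute 24 h stood apart from all other groups, and it stood below them. No difference from healthy reached 2-fold, the lowest being -0.84 ± 0.19 (SE, adjusted p 0.00151) in acute 24 h and the highest 0.58 ± 0.17 (SE, adjusted p 0.0219) in chronic 72 h with edgeR. Timp2 was higher in acute 7 d than acute 24 h by 1.16 ± 0.19 (SE, adjusted p 5.78e-05) and in chronic 24 h than acute 24 h by 1.30 ± 0.20 (SE, adjusted p 4.52e-05) with edgeR. Timp2 group means ran, from the highest, in the order chronic 72 h, chronic 24 h, acute 7 d, chronic 14 d, acute 72 h, healthy and acute 24 h, and neighbours overlapped except healthy and acute 24 h.

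Timp3, the inhibitor that binds to the matrix (chr10:86300372-86349506, 8.14 kb of exons), was raised in several groups, with wide spread inside them. It had 162, 231, 300.2 and 235 CPM in healthy, 495, 306 and 340.0 in acute 24 h, 524, 409, 1179 and 1127 in acute 72 h and 384, 510.3, 345 and 479.6 CPM in acute 7 d libraries. It had 399.8, 528, 1398 and 1661 CPM in chronic 24 h, 397, 348, 886 and 676 in chronic 72 h and 384, 476, 734 and 566 CPM in chronic 14 d libraries. Every injured library lay above every healthy one, yet acute 72 h and chronic 24 h each split into a lower and a higher pair. In chronic 24 h the higher pair was the 2 libraries of higher depth, with 3.30 times the mean of the others, and in chronic 72 h this ratio was 2.10, whereas the acute 72 h libraries were all of higher depth. Timp3 was higher than healthy by 2.10 ± 0.42 (SE, adjusted p 4.47e-04) in chronic 24 h, 1.31 ± 0.41 (SE, adjusted p 0.0244) in chronic 72 h and 1.80 ± 0.41 (SE, adjusted p 0.00267) in acute 72 h with edgeR. The chronic 72 h call was lost without healthy replicate 1 (1.17) or 2 (1.31) and without chronic 72 h replicate 3 (1.07) or 4 (1.23), and in libraries of higher depth alone the value was 1.79. The differences in chronic 14 d, 1.22 ± 0.41 (SE, adjusted p 0.0633), acute 24 h, 0.71 ± 0.43 (SE, adjusted p 0.214), and acute 7 d, 0.89 ± 0.40 (SE, adjusted p 0.115), did not pass with edgeR. The chronic 14 d difference passed in edgeR with the replicate block (1.20, adjusted p 0.0226), in a fit of only the groups compared (1.30, adjusted p 0.0264) and with depth class as a term (2.61, adjusted p 6.21e-04). The gene lies inside Syn3 on the opposite strand, and 1733 of its 8144 exon bases lie under exons of Syn3. Timp3 group means ran, from the highest, in the order chronic 24 h, acute 72 h, chronic 72 h, chronic 14 d, acute 7 d, acute 24 h and healthy, and neighbours overlapped except acute 24 h and healthy.

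Levels of different genes were scaled per kb of exon, with the exons of all transcripts of a gene merged. Shares between genes depend on that length, which can exceed that of the transcript in use. In healthy libraries Mmp14 had 412 and Mmp2 365 CPM before this scaling. On this scale Timp1 and Mmp3 held their largest shares at 24 h after injury. Timp2 held 92.8 ± 1.30% of the summed CPM per kb of the 3 inhibitors in healthy libraries, 57.3 ± 3.07% in acute 24 h and 64 ± 1.81% in chronic 24 h (SD over 4, 3 and 4 libraries). Timp1 went from 0.170 ± 0.196% in healthy to 29.8 ± 1.31% in acute 24 h and 21.8 ± 5.59% in chronic 24 h, and was at 2.03 ± 0.992% in chronic 72 h. Timp2 was therefore the most abundant inhibitor in every group. Among the 7 MMPs, Mmp2 held 58.1 ± 0.676% in healthy, 12.8 ± 3.09% in acute 24 h, 43.4 ± 5.99% in chronic 24 h and 71.2 ± 4.42% in chronic 72 h libraries, and Mmp14 37.1 ± 0.951%, 62.9 ± 5.21%, 41.7 ± 5.87% and 20.4 ± 2.42% in the same groups. Mmp3 made up 20.7 ± 3.13% of the MMP reads per kb in acute 24 h and 4.79 ± 3.29% in chronic 24 h. By this length, Mmp9, Mmp12 and Mmp13 together held little, and the highest group mean among them was 2.85 ± 1.59% for Mmp12 in chronic 24 h. Summed over the family, MMPs had 186 ± 38.2 CPM per kb in healthy, 219.7 ± 10.5 in acute 24 h, 585 ± 21.5 in chronic 24 h and 677 ± 97.3 in chronic 72 h libraries, and TIMPs 399 ± 40.4, 361 ± 21.9, 799 ± 183 and 635 ± 155.

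**Figure D4:**
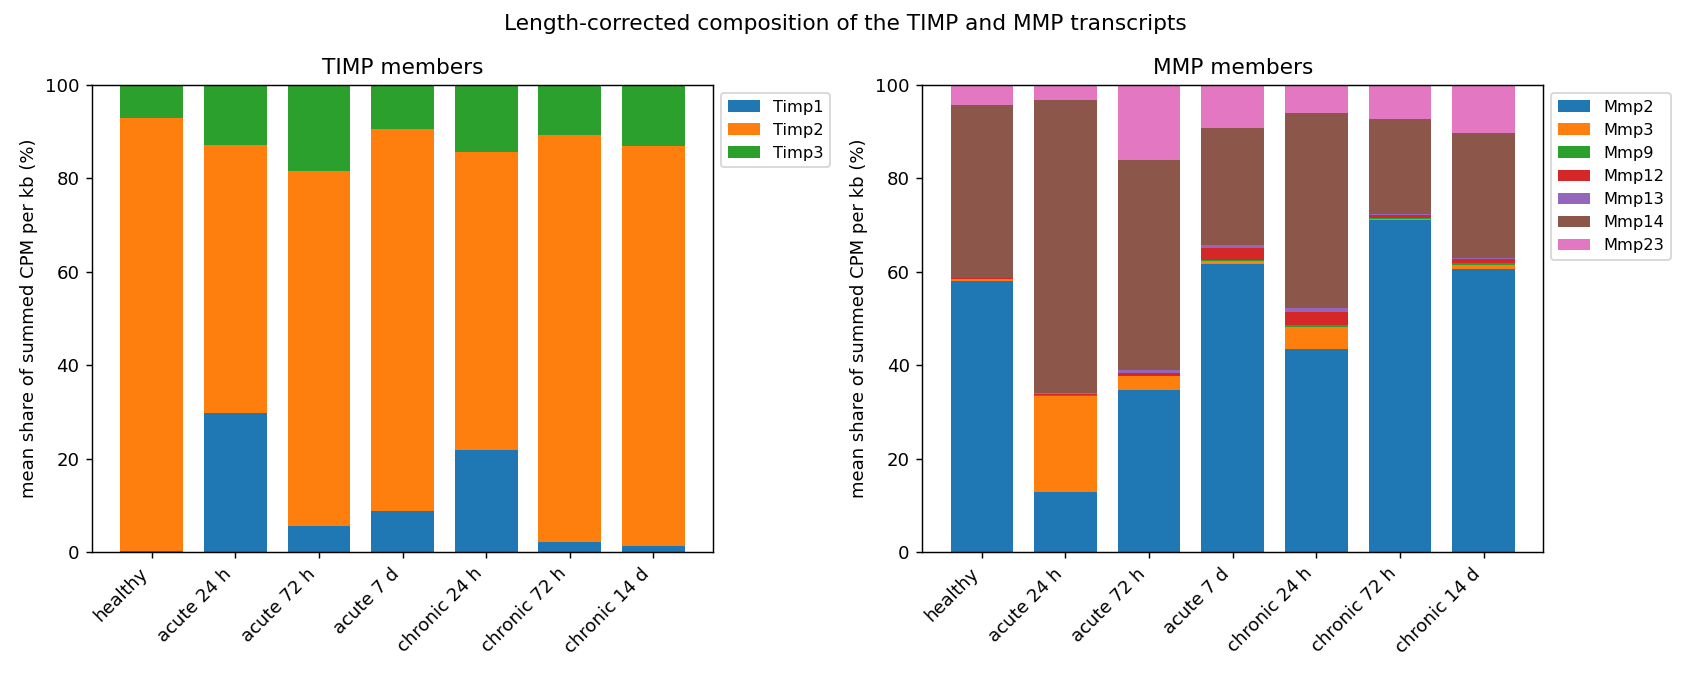
Mean share (percent) of each gene in the summed CPM per kb of exon of the 3 TIMPs (left) and the 7 MMPs (right) in each group. Timp1 takes a visible share at 24 h after injury, and in acute 24 h Mmp14 and Mmp3 hold larger shares, and Mmp2 a smaller one, than in healthy libraries.

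The same interval after injury gave other levels when injury had been repeated. At 24 h, Mmp2, Mmp9, Mmp12, Mmp13, Mmp23, Timp2 and Timp3 were higher in chronic than acute libraries, 7 of 10 beside 10.9% of all tested genes, and 0 were lower (3.05% of all genes). The groups did not overlap for 8 of 10 (33.2% of all genes). The differences were 3.17 ± 0.27 (SE, adjusted p 5.81e-08) for Mmp2, 4.87 ± 0.85 (SE, adjusted p 2.42e-04) for Mmp12, 3.94 ± 0.67 (SE, adjusted p 1.70e-04) for Mmp13 and 2.35 ± 0.29 (SE, adjusted p 4.41e-06) for Mmp23 with edgeR. Mmp3 and Timp1, which were highest at 24 h in both courses, had differences of -0.69 ± 0.54 (SE, adjusted p 0.394) and 0.64 ± 0.85 (SE, adjusted p 0.636) with edgeR, neither of which passed. Mmp2 was lower than healthy at acute 24 h and higher than healthy at chronic 24 h. The call of Mmp9, 2.91 ± 0.78 (SE, adjusted p 0.0105) with edgeR, was lost without acute 24 h replicate 2 (2.66) or 3 (2.54), and its value was 3.86 without replicate 1. The Timp3 groups overlapped, and its call, 1.39 ± 0.45 (SE, adjusted p 0.0288) with edgeR, was lost without acute 24 h replicate 2 (1.26) or 3 (1.32) and without chronic 24 h replicate 3 (1.18) or 4 (0.96). Mmp12 had 5.62 without acute 24 h replicate 1. In libraries of higher depth alone, the difference was 4.17 for Mmp12 and 2.59 for Mmp13, and that of Mmp9 was 2.51 (edgeR, adjusted p 0.133), which was not called.

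At 72 h, Mmp2 and Mmp12 were higher in chronic than acute libraries, 2 of 10 beside 5.11% of all genes, with 0 lower (4.01% of all genes). The groups did not overlap for 4 of 10 (20.8% of all genes). Mmp2 differed by 3.05 ± 0.24 (SE, adjusted p 3.13e-08) with edgeR, and its chronic libraries all lay above its acute ones. Mmp12 differed by 1.95 ± 0.66 (SE, adjusted p 0.0491) with edgeR, and here the groups overlapped. The Mmp12 call was lost without any one of the acute 72 h libraries (values from 1.84 to 2.09) and without chronic 72 h replicate 2 (2.11) or 4 (0.96).

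The step from 24 h to 72 h was called different between chronic and acute injury for Mmp13, Mmp23 and Timp3, 3 of 10 beside 8.74% of all tested genes. All 3 were lower in the chronic step, as were 6.46% of all genes, and 2.28% of all genes were higher. Each rose, by its fitted value, from acute 24 h to acute 72 h, by 1.38, 1.96 and 1.09, of which only that of Mmp23 passed the test. From chronic 24 h to 72 h the values were -1.25, 0.49 and -0.79, of which none passed. The chronic step minus the acute step was -2.63 ± 0.82 (SE, adjusted p 0.0394) for Mmp13, -1.47 ± 0.37 (SE, adjusted p 0.0116) for Mmp23 and -1.88 ± 0.60 (SE, adjusted p 0.0447) for Timp3 with edgeR. In libraries of higher depth alone, Mmp13 had -0.92 and Mmp23 -0.96, and neither was called. Mmp23 was called without each library in turn. Mmp13 was lost without each acute 24 h library, acute 72 h replicates 1 to 3, chronic 24 h replicates 1 and 2 and chronic 72 h replicates 1 to 3, at values from -2.28 to -2.80. Timp3 was lost without each acute 24 h library, acute 72 h replicates 3 and 4, chronic 24 h replicates 3 and 4 and chronic 72 h replicates 1, 2 and 4, at values from -1.40 to -2.11.

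Within the acute course, 2 of 10 genes were higher and 1 lower at 72 h than at 24 h (11.2% and 3.76% of all genes), and 5 were higher and 1 lower at 7 d (17.8% and 9.24% of all genes). Mmp3 was the gene that fell at both times. Groups did not overlap for 7 of 10 genes at either time (35.8% and 52.1% of all genes). Within the chronic course, 0 were higher at 72 h and at 14 d than at 24 h (4.72% and 6.65% of all genes). Those lower were Mmp3, Mmp12 and Timp1 at 72 h (3.65% of all genes), joined by Mmp13 and Mmp14 at 14 d (6.11% of all genes). Groups did not overlap for 4 genes at 72 h and 6 at 14 d (19.4% and 24.6% of all genes).

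Of 17 other Mmp and Timp genes of the mouse, 9 had enough counts to be tested, and Mmp11, Mmp15, Mmp17 and Mmp19 had counts in all 27 libraries. Mmp1b and Mmp7 had 0 counts in all 27. In chronic 24 h, 4 of the 9 were higher than healthy and 1 lower, and in acute 24 h 3 were higher and 3 lower. In the other groups 4 were higher and 1 lower (chronic 72 h), 3 higher (chronic 14 d), 3 higher (acute 72 h) and 4 higher (acute 7 d). Of all tested genes, 11.2% were higher and 8.11% lower in chronic 24 h, and 9.41% and 12.5% in acute 24 h. These shares were 7.88% and 4.2% in chronic 72 h and 4.55% and 1.17% in chronic 14 d. In acute 72 h they were 8.23% and 4.33%, and in acute 7 d 9.23% and 5.64%. The stromelysin-like Mmp19 had 1.27, 1.66, 1.94 and 0.693 CPM in healthy, 27, 19 and 23.2 in acute 24 h and 119, 115, 77.7 and 74.4 CPM in chronic 24 h libraries. It was higher than healthy by 4.04 ± 0.34 (SE, adjusted p 1.28e-08) in acute 24 h and 6.11 ± 0.35 (SE, adjusted p 2.53e-11) in chronic 24 h with edgeR, without overlap. Mmp10, stromelysin 2, had 0 counts in all healthy libraries, 44, 0 and 2 counts in acute 24 h and 0, 33, 159 and 289 counts in chronic 24 h libraries. Its mean was at least 38.6-fold higher in chronic 24 h (edgeR, adjusted p 0.00293), although chronic 24 h replicate 1 was at 0. In acute 24 h its mean was at least 5.07-fold higher (edgeR, adjusted p 0.0344), a value resting on replicate 1, while replicate 2 was at 0. Both groups thus overlapped healthy, and the bounds do not hold for each library. Mmp10 had counts in only 8 of the 27 libraries.

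Mmp8, the collagenase of neutrophil granules, had 0 counts in all healthy libraries, 29, 16 and 4 counts in acute 24 h and 29, 31, 15 and 39 counts in chronic 24 h libraries. Its mean was at least 5.35-fold higher in acute 24 h (edgeR, adjusted p 1.45e-04) and at least 12.1-fold higher in chronic 24 h (edgeR, adjusted p 1.64e-05). Mmp27 had 0 counts in healthy and acute 24 h libraries and 7, 31, 35 and 20 counts in chronic 24 h libraries. Its mean there was at least 9.26-fold higher than in healthy libraries (edgeR, adjusted p 3.15e-04). Mmp15, a membrane-type protease, was lower, with log2 fold changes of -3.93 ± 0.37 (SE, adjusted p 6.00e-08) in acute 24 h and -1.90 ± 0.30 (SE, adjusted p 2.96e-05) in chronic 24 h with edgeR, against 25.6 ± 3.69 CPM (SD, n = 4) in healthy libraries. Mmp11 and Mmp17 differed by -1.51 ± 0.24 (SE, adjusted p 3.04e-05) and -1.38 ± 0.20 (SE, adjusted p 1.12e-05) in acute 24 h with edgeR and were not called in chronic 24 h libraries.

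Of 18 genes that activate, inhibit or take up MMPs, 17 were tested, and in chronic 24 h 7 were higher and 1 lower than in healthy libraries. In acute 24 h 5 were higher and 2 lower. In the other groups 6 were higher and 2 lower (chronic 72 h), 5 and 2 (chronic 14 d), 6 and 1 (acute 72 h) and 7 and 3 (acute 7 d). The shares of all tested genes higher and lower were 11.2% and 8.11% in chronic 24 h and 9.41% and 12.5% in acute 24 h. They were 7.88% and 4.2% in chronic 72 h and 4.55% and 1.17% in chronic 14 d. In acute 72 h they were 8.23% and 4.33%, and in acute 7 d 9.23% and 5.64%. The plasminogen activators Plau and Plat, which lead to the activation of MMP precursors, were higher in both 24 h groups. So was Plaur, the receptor gene for the Plau product. Plat had 19.2, 31.9, 27.1 and 12.9 CPM in healthy, 399, 241 and 199 in acute 24 h and 851, 1023, 791 and 713 CPM in chronic 24 h libraries. Its log2 fold change was 3.62 ± 0.31 (SE, adjusted p 1.92e-08) in acute 24 h and 5.21 ± 0.32 (SE, adjusted p 8.91e-11) in chronic 24 h with edgeR. Plau had 3.76 ± 0.44 (SE, adjusted p 1.06e-06) and 4.73 ± 0.45 (SE, adjusted p 3.91e-08), and Plaur 5.95 ± 0.43 (SE, adjusted p 1.10e-09) and 5.03 ± 0.41 (SE, adjusted p 4.27e-09), in the same comparisons with edgeR. Cd44, a receptor that holds MMPs at the cell surface, was higher by 1.85 ± 0.21 (SE, adjusted p 8.07e-07) and 3.31 ± 0.21 (SE, adjusted p 1.33e-10), and Cd63, a partner of Timp1 at the cell surface, by 1.71 ± 0.20 (SE, adjusted p 8.66e-07) and 1.62 ± 0.19 (SE, adjusted p 6.86e-07) with edgeR.

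Inhibitors of the pathway split. Reck, a membrane-bound inhibitor of Mmp2, Mmp9 and Mmp14, had 232, 222, 223 and 272 CPM in healthy, 88, 84.3 and 104 in acute 24 h and 63.7, 63.8, 92.3 and 86 CPM in chronic 24 h libraries. It was lower in both, at -1.37 ± 0.20 (SE, adjusted p 1.82e-05) and -1.63 ± 0.19 (SE, adjusted p 5.57e-07) with edgeR, without overlap. Serpine2, an inhibitor of plasminogen activators, was higher in chronic 24 h libraries by 5.42 ± 0.59 (SE, adjusted p 3.19e-07) with edgeR, and was -0.32 ± 0.57 (SE, adjusted p 0.714) in acute 24 h. Tfpi2, a serine protease inhibitor of the matrix, was higher in chronic 24 h by 2.35 ± 0.39 (SE, adjusted p 7.05e-05) with edgeR. Plg, the gene of plasminogen, which hepatocytes make, was lower in acute 24 h, at -4.85 ± 0.94 (SE, adjusted p 3.46e-04) with edgeR, and 8 of the 10 hepatocyte markers were also lower there, with a sum of 145 to 342 CPM against 555 to 3474 CPM in healthy libraries. The part of hepatocyte RNA in the Plg reads was not tested.

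**Figure D5:**
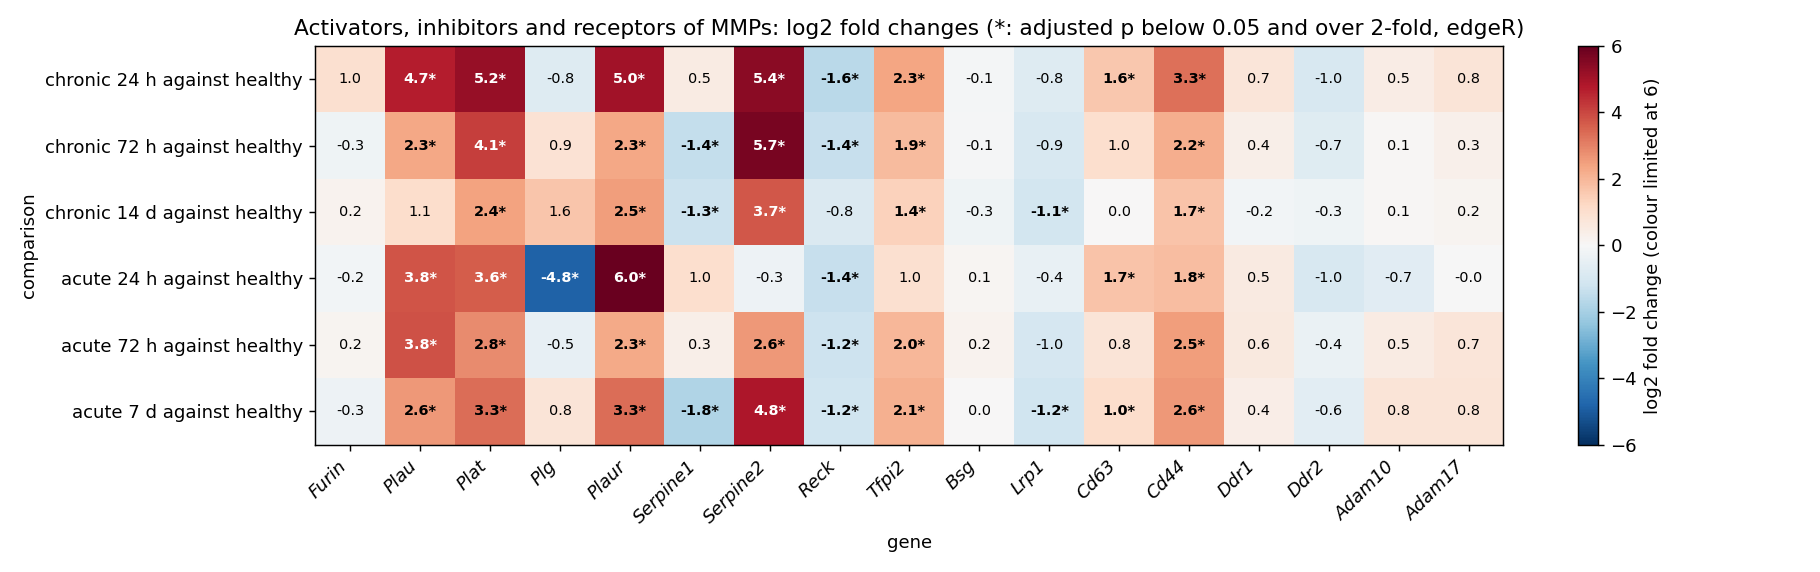
Log2 fold change against healthy libraries of 17 tested genes that activate, inhibit or take up MMPs (columns) in the 6 injured groups (rows), with an asterisk where the gene was called changed with edgeR. Plat, Plaur and Cd44 have an asterisk in all 6 rows, and Reck is lower in all but chronic 14 d.

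For 9 of the 10 genes, the 2 genes of most similar pattern were taken as those with the smallest root mean square difference of centred log2 CPM over the 27 libraries, given here in brackets. Mmp2 was nearest to Lpin1 (0.491) and Ctnnal1 (0.501) and Mmp14 to Loxl1 (0.361) and Slc6a8 (0.394). Loxl1 encodes an enzyme that crosslinks elastin and collagen. Mmp3 was nearest to Bmper (0.924) and Steap1 (1.06), and Timp1 to Ch25h (1.41) and Fkbp11 (1.5), the widest difference of the set, where the SD of Timp1 itself was 3.01. Mmp9 was nearest to Trem1 (0.730) and Acod1 (0.806), Mmp12 to Il1rn (0.761) and Adam8 (0.890) and Mmp13 to Cd14 (0.731) and Tlr13 (0.739). Trem1, Il1rn, Cd14 and Tlr13 are genes known from myeloid cells. Timp2 was nearest to Arel1 (0.239) and Zbtb1 (0.240) and Timp3 to Lclat1 (0.455) and Cd200 (0.497). These are descriptions over libraries that share groups and depth classes.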

How the data were processed

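RNA of sorted hepatic stellate cells was measured in 27 libraries, which the labels place in 7 groups. The authors sequenced single-end reads of 75 bases, used FastQC for quality, STAR for alignment to the GRCm38.p6 genome and StringTie for assembly, and they deposited a table of raw read counts per gene. Versions, the annotation release, the strand setting and the step from assembly to counts are not given in the sources used here. Every column of the table matched 1 library by name (0 unmatched). Replicates were not pooled.

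From these counts, edgeR 4.0.16 (R 4.3.3, limma 3.58.1) fitted all 27 libraries in 1 model with a term for each group, TMM scaling, filterByExpr by group (18758 genes kept) and the quasi-likelihood test, with Benjamini-Hochberg adjustment over all tested genes. The SE of a log2 fold change was its size divided by the square root of F. CPM used TMM-scaled library sizes. CPM per kb used the exon length of each gene in GENCODE M21, merged over all its transcripts, and the coordinates given are from that release. Log2 CPM used a prior count of 2. A count of 0 was taken to allow up to 3 counts. Plots came from matplotlib 3.10.9 under Python 3.11.15, with pandas 2.3.3.

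The 10 genes and all lists were chosen with earlier results of these data known. All 10 genes are named in every comparison. From 17 other Mmp and Timp genes and from 18 genes for activation, inhibition and uptake of MMPs, those called in chronic 24 h or acute 24 h against healthy libraries, or at 0 throughout, are named. The genes of most similar pattern are not reported here for Mmp23. Cell types were followed through marker lists of stellate cells, macrophages and Kupffer cells, monocyte-derived macrophages, neutrophils, sinusoidal endothelial cells, hepatocytes, cholangiocytes, mesothelial cells and portal fibroblasts, T and NK cells, and B cells. Alternatives were other scaling (DESeq2 size factors, library size alone), DESeq2 1.42.0 as the test, other filters on low counts, other thresholds, the replicate number or the depth class as a term, a fit of only the groups compared, and each library left out in turn. A fit to the 19 libraries of higher depth was added after seeing the data. Counting intervals and limits cover counting error only, since reads carried no molecular identifiers.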

Additional observations from a re-analysis of the deposited data

Results flagged for a closer look

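Among 59 groups of 4 libraries, a library stood apart in 3, where chance gives about 1 in 20 groups. Mmp2 in chronic 14 d replicate 4 was at 400.919 CPM, below 607.24 to 627.453 CPM in the other replicates. Mmp13 in healthy replicate 2 was at 0.292533 CPM, the nearest other replicate being at 0.634576 CPM, and these values rest on few counts. Timp2 in healthy replicate 1 was at 1244.04 CPM, the nearest other replicate being at 1493.48 CPM.

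For 3 genes the change from 24 h to 72 h differed between chronic and acute injury by an interaction term in edgeR, given as the chronic minus the acute log2 fold change. It was -2.633 for Mmp13, -1.4731 for Mmp23 and -1.8789 for Timp3. The Mmp13 and Mmp23 differences were not called in libraries of higher depth alone. With 1 library left out in turn, the Mmp13 call was lost in 11 of 15 fits and the Timp3 call in 10 of 15. None of the 3 was called in the test against a 2-fold minimum.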

How the results depend on the processing

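Of 67 called fold changes, 48 were called in every setting that gave a value and without every single library, 11 were lost without at least 1 library and 19 in at least 1 other setting, of which 5 only in a test against a 2-fold minimum. None of the 67 reversed. Mmp9 in the 3 acute groups against healthy had no value in fits of only the groups compared, where the filter removed it, and chronic 14 d had no fit in libraries of higher depth alone. The counts of genes called moved as follows. With library size alone, 7 genes (4 in the fit as reported) were higher in chronic 14 d than healthy and 1 (0) in chronic 72 h than chronic 24 h. With DESeq2, 7 were higher in chronic 14 d than healthy and 1 (0) lower in chronic 72 h than acute 72 h, and with an adjusted p below 0.1 the counts were again 7 and 1. Without a filter, 1 gene (2) was higher in acute 72 h than acute 24 h, 1 (2) in chronic 72 h than acute 72 h, and 1 (3) differed in its step. Without a fold minimum, 2 (1) were lower in acute 24 h and 1 (0) in acute 72 h than healthy, 1 (0) higher in chronic 72 h than chronic 24 h, 2 (1) lower in acute 72 h than acute 24 h, and 4 (2) higher in chronic 72 h than acute 72 h. In the test against a 2-fold minimum, 4 (7) were higher in acute 72 h than healthy, 1 (3) lower in chronic 72 h than chronic 24 h, 1 (2) higher in acute 72 h than acute 24 h, 4 (7) in chronic 24 h than acute 24 h, 1 (2) in chronic 72 h than acute 72 h, and 0 (3) differed in their step. With only the groups compared, 1 (2) was higher in acute 72 h than acute 24 h and 1 (0) lower in chronic 72 h than acute 72 h. In libraries of higher depth alone, a setting chosen after seeing the data, 1 (0) was higher and 1 (3) lower in chronic 72 h than chronic 24 h, and 1 (3) differed in its step. Acute 7 d, chronic 24 h and chronic 72 h against healthy kept their counts within 1.5 times under every setting. So did chronic 14 d against chronic 24 h and acute 7 d against acute 24 h, under every setting fitted. The cause of these shifts was not tested.

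Leaving out each library in turn gave 0 to 1 genes lower in acute 72 h than healthy, 0 to 1 higher in chronic 72 h than chronic 24 h, 1 to 3 higher and 1 to 2 lower in acute 72 h than acute 24 h, 1 to 2 higher and 0 to 1 lower in chronic 72 h than acute 72 h, and 1 to 3 with a different step.

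Correlations of the deviations of same-numbered libraries ran from -0.1717 to 0.1721, and 0 of 12 comparisons had every one over 0.1. In 0 of 12 was every library nearest its own number, so the numbers were not taken as pairs. In chronic 72 h against acute 72 h, however, all lay from 0.0575 to 0.1721, and 7 of 8 libraries were nearest their own number. In chronic 72 h against chronic 24 h they lay from 0.0638 to 0.1553, with 5 of 8. There replicates 1 and 2 were of lower depth in both groups. With the replicate block, 1 gene (2) was higher in chronic 72 h than acute 72 h, and Mmp13 in chronic 14 d against healthy was lost (1.96, edgeR adjusted p 0.0632) and Timp3 there was gained (1.20, edgeR adjusted p 0.0226). Mmp12 in chronic 72 h against acute 72 h (1.68) and the Mmp13 step (-2.70) were lost too.

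Depth and scaling set limits. Library size alone moved the median of all genes by over 0.1 in 8 comparisons, among them chronic 14 d against healthy (0.15, from -0.03) and chronic 14 d against chronic 24 h (0.18, from 0.01). It also moved the share of higher genes among those called from 79.59% to 91.21% (chronic 14 d against healthy), from 56.43% to 67.14% (chronic 72 h against chronic 24 h) and from 52.11% to 67.23% (chronic 14 d against chronic 24 h). A term for depth class, estimated within chronic 24 h and chronic 72 h, put the first at 57.09%. In that edgeR fit of chronic 14 d against healthy, Mmp13 was lost (1.29, adjusted p 0.395), while Mmp3 (3.24, adjusted p 0.00834) and Timp3 (2.61, adjusted p 6.21e-04) were gained. Mmp3 in chronic 72 h against healthy was gained as well (1.80, adjusted p 0.0220). Mmp9, Mmp12, Mmp13 and Timp1 rest on few counts in healthy libraries, so the sizes of their fold changes are uncertain.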

Other observations

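Markers of other cells in the sort moved with time after injury. Of 10 markers of sinusoidal endothelial cells, 6 were lower and 1 higher in acute 24 h than healthy libraries, 8 were lower in acute 72 h and 6 in chronic 24 h. Of 7 cholangiocyte markers, 2 were higher in chronic 24 h and 1 in acute 7 d. Their sum was 759.7 to 4797 CPM in acute 7 d against 55.8 to 103 CPM in healthy libraries. As only 1 of 7 was called there, with a median log2 fold change of 1.67 over the list, the sum does not stand for the whole list. All 5 B cell markers were higher in acute 7 d and in chronic 14 d, with sums of 63.9 to 170.3 and 121 to 286 CPM against 6.26 to 22.7 CPM in healthy libraries. Of 6 tested markers of T and NK cells, 3 were higher in acute 7 d and 3 in chronic 14 d. These calls are from edgeR.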
